A study of Prunus persica with 9 samples.

Results

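The genes described here are peach (Prunus persica) pre_miRNA genes, ppe-MIR156g (ENSRNA049996926, miR156g below) and ppe-MIR156h (ENSRNA049996563, miR156h below), which are 2 of the 210 genes in the deposited table. They were taken by identifier because the study names both as copies of MIR156. Those names cover 33 of the genes, all picked by the study for a change in these same libraries, so that further MIR156 copies without a name may be in the table. miR156 is among the most conserved plant miRNAs. It cuts or represses the mRNAs of SQUAMOSA promoter-binding-like (SPL) transcription factors, keeps seedlings in the juvenile phase, and declines as a plant ages. In Arabidopsis, SPL factors in turn raise miR172, which promotes the adult phase and flowering.

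Both genes carry the same mature miRNA on the 5p arm, 21 nt long, as listed by the study. They are shown because a read of the mature strand cannot by itself be assigned to either copy. Capitals mark the seed, bases 2 to 8.
miR156g: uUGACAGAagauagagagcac
miR156h: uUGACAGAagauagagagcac
Among the 39 mature sequences listed for the 33 named genes (29 of them distinct), the 2 copies were the only ones with this seed. The counting tool of the study, RSEM, divides reads that map to several genes. The value of a single copy is therefore uncertain wherever reads were shared, while the sum of both copies does not depend on how reads were divided between them. Reads shared with any further copy in the table would affect the sum as well. How the division contributed to the values below was not tested.

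The libraries are miRNA-Seq of leaf blades, midrib removed, from juvenile peach plants of the variety Big Top that had been raised in vitro. PpPep2, a peach plant elicitor peptide, is a signal of damage that triggers immunity. The 3 conditions, with 3 replicates each, were t0 (control plants without peptide, which the sample labels call mock and the study calls untreated), 1 h after spraying with 1 µM PpPep2 and 24 h after spraying. Each replicate pooled leaves of several plants. All controls were collected at t0, so an effect of PpPep2 and an effect of time or handling cannot be told apart. The p-values measure the spread between these replicates. Only pre_miRNA genes are in the table, so the leaf label could not be checked against marker genes. In leaf tissue, fewer cells of a type and less RNA per cell cannot be told apart either.

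The depth behind these values differed 4.73-fold between libraries, from 115519 to 546709 reads on pre_miRNA genes, with medians of 481412 reads at t0, 267132 at 1 h and 218684 at 24 h. One library lay nearer to the control than to its own group. Over the 135 genes tested, 1 h replicate 1 differed from the t0 mean by a median of 0.30 on the log2 scale and from the mean of the other 1 h libraries by 0.53. The other 1 h replicates were nearer to the remaining 1 h libraries (0.36 and 0.41) than to t0 (0.51 and 0.47). Replicate 3 of these was nearer still to the 24 h mean (0.37), and 24 h replicate 2 lay as near to the 1 h mean (0.35) as to its own (0.35). Results are given with and without 1 h replicate 1. That library was set apart on these same values, so tests without it are a description and no independent support.

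miR156h was the abundant copy at t0 and was lower at both times after PpPep2. Its normalized counts were 793.5, 494.9 and 789.4 in the t0 libraries. At 1 h the values were 478.3, 184.2 and 203.1. At 24 h they were 157.4, 230.1 and 177.4. All 6 libraries after PpPep2 were below the lowest t0 library, with 1 h replicate 1 only just below t0 replicate 2. That pair (478.3 and 494.9) differed by less than the counting error of the t0 library, 37.5 normalized counts (SD), as that library was the shallowest and held 174 miR156h reads. In reads, miR156h had 1276, 174 and 1617 at t0, 589, 134 and 124 at 1 h, and 96, 88 and 141 at 24 h.

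miR156h averaged 693 ± 171 normalized counts at t0 (SD, n = 3). At 1 h the mean was 289 ± 165 (SD, n = 3), or 41.7% of the control. By 24 h it was 188 ± 37.5 (SD, n = 3), or 27.2%. The change at 24 h passed the test, with a log2 fold change of -1.86 ± 0.38 (SE, limma adjusted p = 0.0178). At this time 19 of 135 genes were called, 14.1% of those tested, 7 higher and 12 lower. That number lay between 0 and 35 with a library left out. Scaling every library to one total gave 4 higher and 18 lower, and scaling to one upper quartile gave 14 higher and 9 lower. These scalings moved the median of all genes at 24 h from -0.01 to -0.30 and 0.17 on the log2 scale, and that of miR156h from -1.86 to -2.15 and -1.68. The 24 h call for miR156h was lost without t0 replicate 1 (limma adjusted p = 0.0693), t0 replicate 3 (0.0669), 24 h replicate 1 (0.0669) or 24 h replicate 3 (0.0617), with log2 fold changes between -1.74 and -1.83 in these fits.

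At 1 h miR156h did not pass the test, with a log2 fold change of -1.37 ± 0.38 (SE, limma adjusted p = 0.143). One of 135 genes was called at this time, 0.741% of those tested. Without 1 h replicate 1 the log2 fold change of miR156h was -1.80 and passed (limma adjusted p = 0.00419), and 18 genes were called. The order of levels was t0, 1 h, 24 h. The 1 h and 24 h levels did not differ beyond their spread, with a log2 difference of -0.49 between 24 h and 1 h and a 95% interval from -1.35 to 0.37 (limma adjusted p = 0.549). Without 1 h replicate 1 that difference was -0.06 (limma adjusted p = 0.92). Between 24 h and 1 h limma called 0 of 135 genes (0.0%), with 18 at an unadjusted p under 0.05.

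miR156g was close to the limit of detection in the control and had at least 23.5 normalized counts in 5 of the 6 libraries after PpPep2. Its normalized counts were 2.49, 0 and 1.95 at t0. At 1 h they were 0, 114.1 and 163.8. At 24 h they were 328.0, 23.5 and 158.5. The 24 h libraries were all above the t0 libraries, whereas at 1 h the groups overlapped because replicate 1 had a miR156g value of 0. The reads assigned to this copy were 4, 0 and 4 at t0, 0, 83 and 100 at 1 h, and 200, 9 and 126 at 24 h. A value of 0 allowed up to 3 reads, or 8.53 normalized counts in t0 replicate 2 and 2.44 in 1 h replicate 1. This limit covers counting error only, and not the division of reads between the copies.

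By level, miR156g ranked between 142nd and 148th of the 210 genes at t0, where genes at 0 share a rank. In 1 h replicates 1, 2 and 3 it ranked 171st (at 0), 58th and 49th. In 24 h replicates 1, 2 and 3 it ranked 41st, 90th and 49th. miR156h moved the other way, from between 33rd and 36th at t0 to between 42nd and 53rd at 24 h.

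miR156g averaged 1.48 ± 1.31 normalized counts at t0 (SD, n = 3). Its mean was 92.6 ± 84.0 (SD, n = 3) after 1 h and 170.0 ± 152.6 (SD, n = 3) after 24 h. These means were 62.6 and 115 times that of the control, which itself rests on 4, 0 and 4 reads. On the scale of log2(normalized count + 1) the change was 3.62 ± 1.83 at 1 h (SE, limma adjusted p = 0.354) and 5.64 ± 1.83 at 24 h (SE, limma adjusted p = 0.0643), so that neither passed. At both times this was the largest rise among the 135 genes tested, while by p-value miR156g ranked 30th and 27th. The rank by size is no independent support, as miR156g, with 1.48 at t0, reached the minimum mean of 5 only through libraries after PpPep2. With t0 near 0, the size also depends on the constant added, and was 2.86 at 1 h and 4.18 at 24 h with 5 in place of 1. The 95% intervals were wide, from -0.54 to 7.77 at 1 h and from 1.49 to 9.80 at 24 h. Without 1 h replicate 1, which had a miR156g value of 0, both changes passed, at 5.98 (limma adjusted p = 0.00583) and 5.64 (limma adjusted p = 0.00368). The size at 24 h was unchanged by this, and only the spread within conditions fell, from a residual SD of 2.68 to 1.38. With only the t0 and 24 h libraries in the fit, the 24 h change also passed (limma adjusted p = 0.0067). Between 24 h and 1 h the log2 difference of 2.03 had a 95% interval from -2.13 to 6.18 (limma adjusted p = 0.573), and it turned to -0.34 without 1 h replicate 1.

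**Figure D1:**
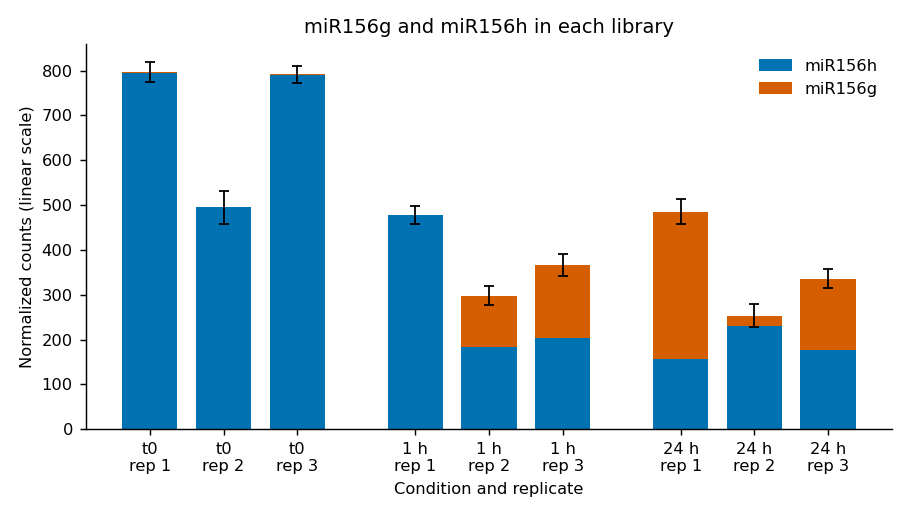
Normalized counts (linear axis from 0) of miR156h (blue) and miR156g (orange), stacked, in each of the 9 libraries; the error bar is the counting error (SD) of the sum. The orange part is barely visible at t0 and in 1 h replicate 1, and is largest in 24 h replicate 1 (328.0).

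**Figure D2:**
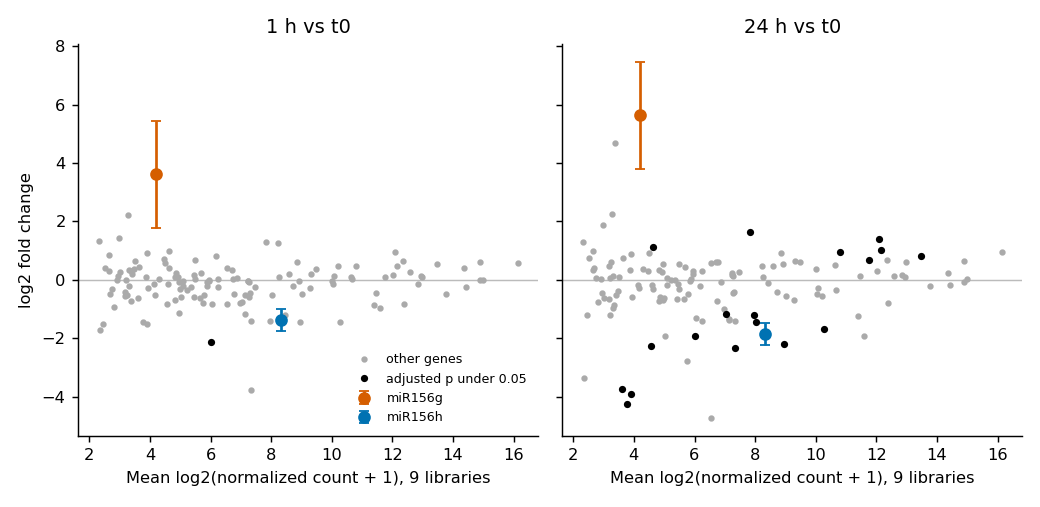
Log2 fold change against mean log2(normalized count + 1) over 9 libraries for the 135 genes tested, at 1 h (left) and 24 h (right) against t0. Bars on miR156g (orange) and miR156h (blue) are SE, and black points are other genes with a limma adjusted p under 0.05. miR156g lies highest in both panels, at 3.62 and 5.64, with the widest bar of the pair.

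The replicates of miR156g differed widely. Its residual SD within conditions was 2.68 on the log2 scale, the second highest of 135 genes, against a median of 0.42 over all genes and 0.52 for miR156h. Further genes with a similar spread, chosen after their values were seen, were ENSRNA049996337 (2.73) and ENSRNA049997224 (2.66). The spread of miR156g was 7.06 times what counting of reads gives at 1 h, 9.35 times at 24 h and 1.44 times at t0. A library with 0 reads entered with a counting error of 0, which raises the ratios at t0 and 1 h. The ratio at t0 therefore cannot be read as spread beyond counting. For miR156h these ratios were 6.20 at t0, 9.13 at 1 h and 1.98 at 24 h, so that its 24 h replicates came nearest to counting error. Genes at 0 in at least 1 library and at 100 or more normalized counts in another were rare, 5 of 210, and miR156g was one of them.

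**Figure D3:**
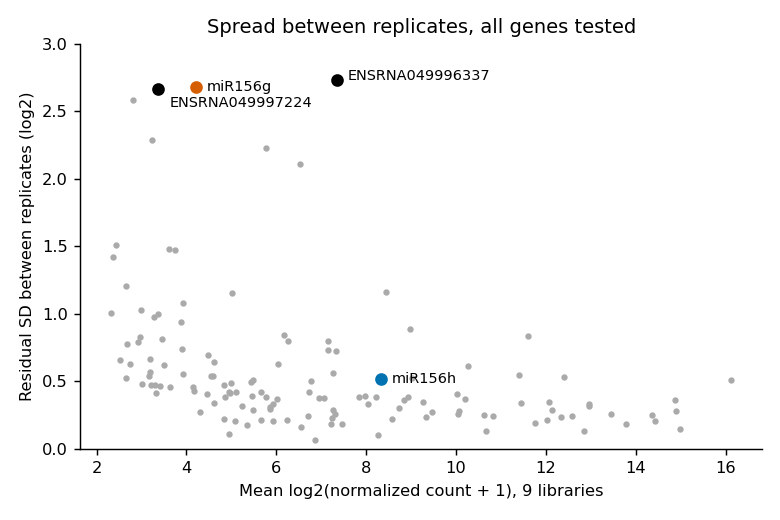
Residual SD between replicates (log2) against mean log2(normalized count + 1) for the 135 genes tested. miR156g (2.68) lies far above most genes, next to ENSRNA049996337 and ENSRNA049997224, whereas miR156h (0.52) lies within the bulk.

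The sum of both copies, which does not depend on the division of reads between these 2 genes, was lower after PpPep2 than at t0. The sums were 796.0, 494.9 and 791.4 normalized counts at t0. At 1 h they were 478.3, 298.3 and 366.9, and at 24 h 485.4, 253.6 and 335.9. No library after PpPep2 reached the lowest t0 library, but the nearest values, 485.4 ± 28.2 in 24 h replicate 1 and 494.9 ± 37.5 in t0 replicate 2 (counting SD), were within counting error. Under scaling to one total or to one upper quartile the groups overlapped, as t0 replicate 2 (501.3 and 510.0) fell below 1 h replicate 1 (578.9 and 579.4), and with one upper quartile also below 24 h replicate 1 (529.9).

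The mean sum at t0 was 694 ± 173 (SD, n = 3). After 1 h it was 381 ± 90.8 (SD, n = 3), or 54.9% of the control, and after 24 h 358 ± 118 (SD, n = 3), or 51.6%. The gain of miR156g in means amounted to 22.6% of the loss of miR156h at 1 h (a difference from t0 of 91.1 against -404.1 normalized counts) and to 33.4% at 24 h (168.5 against -504.3). Without 1 h replicate 1 the 1 h value was 27.6%, and without 24 h replicate 1, the library with most miR156g, the 24 h value was 18.3%. Over both times, the 6 libraries after PpPep2 averaged 370 ± 94.8 (SD) against 694 ± 173 at t0, a difference of -324 normalized counts (two-sided exact permutation test, p = 0.0238, the smallest that 6 against 3 libraries can give). Scaled to one upper quartile, the difference was -220 (exact permutation p = 0.0714). Fitted as 1 feature in limma, the sum did not pass at either time. Its log2 fold change was -0.86 ± 0.31 at 1 h (SE, limma adjusted p = 0.232, with 1 of 134 features or 0.746% called) and -0.97 ± 0.31 at 24 h (SE, limma adjusted p = 0.0635, with 18 of 134 or 13.4% called). Without 1 h replicate 1 the 24 h value passed (limma adjusted p = 0.0427), while the 1 h value was -1.03 and did not (limma adjusted p = 0.0822). The difference over both times without that library was -346 normalized counts (exact permutation p = 0.0357, the smallest that design allows). The sums at 24 h and 1 h differed by -0.11, with a 95% interval from -0.82 to 0.59, and by 0.06 without 1 h replicate 1.

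The share of miR156g in the sum does not depend on the scaling of a library. At t0 it was 0.313% (95% exact Clopper-Pearson interval 0.085 to 0.798, of 1280 reads) in replicate 1, 0 of 174 reads in replicate 2 (3 reads, the limit that a count of 0 allows, would be 1.72%, and the Clopper-Pearson upper bound is 2.10%), and 0.246% (0.067 to 0.631, of 1621 reads) in replicate 3. At 1 h replicate 1 again had 0 of 589 reads (3 reads would be 0.509%, and the Clopper-Pearson upper bound is 0.624%). Replicates 2 and 3 had 38.2% (31.8 to 45.1) and 44.6% (38.0 to 51.4). At 24 h the share was 67.6% (61.9 to 72.9) in replicate 1, 9.28% (4.33 to 16.9, of 97 reads) in replicate 2 and 47.2% (41.1 to 53.4) in replicate 3. By the assigned reads, miR156g was the more abundant copy in 1 library of 9, 24 h replicate 1, and the intervals of the 24 h libraries did not overlap. The intervals cover counting error only, and not the division of shared reads between the copies, so they are too narrow wherever reads were shared.

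The mean share went from 0.19 ± 0.16% at t0 (SD, n = 3) over 27.6 ± 24.1% after 1 h (SD, n = 3) to 41.35 ± 29.6% after 24 h (SD, n = 3). The 24 h libraries did not overlap with t0 (two-sided exact permutation p = 0.1, the smallest that 3 against 3 can give). The 1 h libraries did overlap, with a difference of 27.4 percentage points (exact permutation p = 0.4). Without 1 h replicate 1 the difference was 41.3 (exact permutation p = 0.2, the smallest that design allows). The share at 24 h exceeded that at 1 h by 13.7 percentage points (exact permutation p = 0.5). With both times joined the share was 34.5 ± 25.3% against 0.19 ± 0.16%, which missed the threshold (exact permutation p = 0.0952). Without 1 h replicate 1 this difference was 41.2 percentage points (exact permutation p = 0.0357, the smallest that design allows). The difference between 24 h and 1 h was then -0.10.

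**Figure D4:**
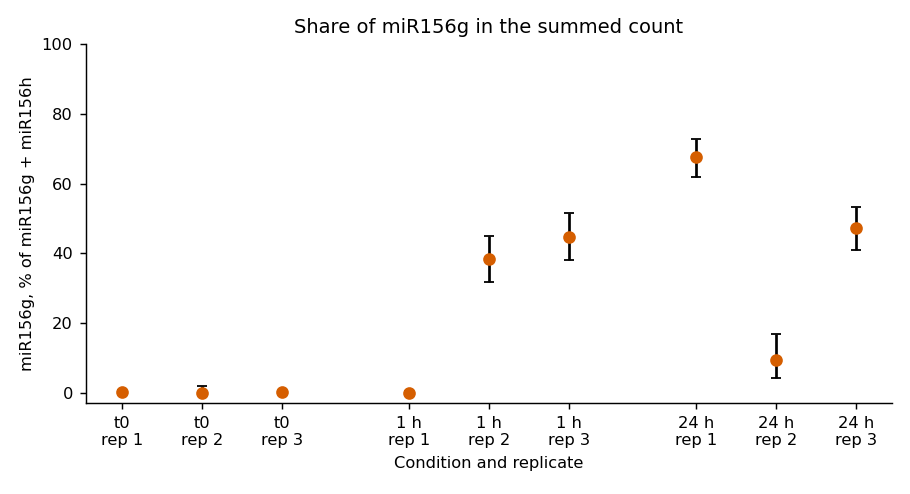
Share of miR156g in the summed normalized count of both copies (percent, linear axis) in each of the 9 libraries, with exact 95% Clopper-Pearson intervals on reads. The t0 libraries and 1 h replicate 1 lie below 1%, and the other libraries spread from 9.28% to 67.6%.

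Counts of genes whose libraries do not overlap between groups give the background for this separation. At 1 h 29 of 135 genes (21.5%) did not overlap with t0, miR156h among them and miR156g not. At 24 h 56 genes (41.5%) did not overlap, both copies among them. At both times together 20 genes (14.8%) did not overlap with t0, again with miR156h and without miR156g.

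Each copy was set beside the genes with the most similar pattern, by Pearson's r of log2(normalized count + 1) over the 9 libraries, which share conditions and scaling, as a description. For miR156g these were miR7122a (r = 0.94), miR482f (0.91) and miR7122b (0.90). The miR7122 family triggers phased secondary siRNAs in the rose family, and miR482 miRNAs target mRNAs of NLR immune receptors. miR7122a had 2517, 2423 and 2577 normalized counts at t0, 3167, 5646 and 6205 at 1 h, and 6968, 5355 and 7763 at 24 h. As with miR156g, 1 h replicate 1 was the 1 h library nearest to t0. Its change at 24 h passed (log2 fold change 1.40, limma adjusted p = 0.0144), as did that of miR482f (1.02, 0.0246) and miR7122b (1.65, 0.0144).

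For miR156h the nearest genes were miR482c (r = 0.945), miR166e (0.936) and miR530 (0.929). miR166 acts on class III HD-ZIP transcription factors, which set leaf polarity. miR166e had 2835, 2830 and 2057 normalized counts at t0, 1999, 547 and 726 at 1 h, and 623, 928 and 852 at 24 h, again with 1 h replicate 1 close to t0. At 24 h miR166e (log2 fold change -1.69, limma adjusted p = 0.0363) and miR530 (-2.35, 0.0246) passed, and miR482c did not (-1.24, 0.0638). Between the copies r was -0.89, which placed miR156g 123rd by similarity to miR156h and miR156h 130th by similarity to miR156g. Both copies carry the same mature sequence, so a change in the division of shared reads would also lower this r. The part of that division was not tested.

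Other genes tied to miR156 by the age pathway or by sequence were taken from the names given by the study. The study chose them on these libraries, so their direction is no independent evidence. They were miR172b, which lies downstream of SPL in Arabidopsis, and miR535a and miR535b, relatives of miR156 by sequence. The mature miR535 sequences are shown for comparison with miR156, with bases 2 to 8 in capitals.
miR535a: uGACAACGagagagagcacgc
miR535b: uGACGACGagagagagcacgc
Aligned without gaps over 19 bases, miR535a differed from miR156 at 7 bases and miR535b at 6. Each shared with it a run of 9 bases, AGAGAGCAC, outside the seed. At its start miR535a has UGACA and miR535b UGAC, bases that also open the miR156 seed. The alignment over 19 bases does not line up these starts, so the likeness is not limited to the shared run. Of these 3 genes, 1 fell at 1 h (0.741% of all genes were called in either direction) and 2 fell at 24 h (14.1% of all genes), and 0 rose, with a median log2 fold change of -1.40 and -1.41 against -0.03 and -0.01 over all genes tested.

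miR535a fell from 167 ± 43.2 normalized counts (SD, n = 3) at t0 to 37.1 ± 9.99 at 1 h and 43.4 ± 10.4 at 24 h (log2 fold changes -2.15 and -1.92, limma adjusted p = 0.00791 and 0.0144). miR535b, at 466 ± 129, 178 ± 56.3 and 199 ± 31.8, passed at 24 h only (-1.20, limma adjusted p = 0.0363, against -1.40 and 0.0802 at 1 h). In contrast to miR156h, the 1 h replicates of miR535a lay close together, from 26.8 to 46.7, and all far below the t0 range of 136.7 to 216.4. miR172b had 113 ± 27.7 at t0, 116 ± 83.3 at 1 h and 42.8 ± 13.9 at 24 h, and did not pass at either time (24 h log2 fold change -1.41, limma adjusted p = 0.122).

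A further pair with 1 shared mature sequence was miR171a (listed as 3p) and miR171c (listed as 5p), which act on GRAS transcription factors. There the minor copy, miR171c, took 4.63 ± 4.10% of the sum at t0 (range 0 to 7.79%), 13.6 ± 4.31% at 1 h (8.64 to 16.7%) and 12.8 ± 4.73% at 24 h (7.95 to 17.4%). In no library did miR171c reach the level of miR171a. miR171c had 0 to 5.86 normalized counts at t0 and 9.62 to 21.3 after PpPep2. Neither miR171a nor miR171c passed at 1 h (limma adjusted p = 0.354 and 0.202) or 24 h (0.0729 and 0.0643).

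**Figure D5:**
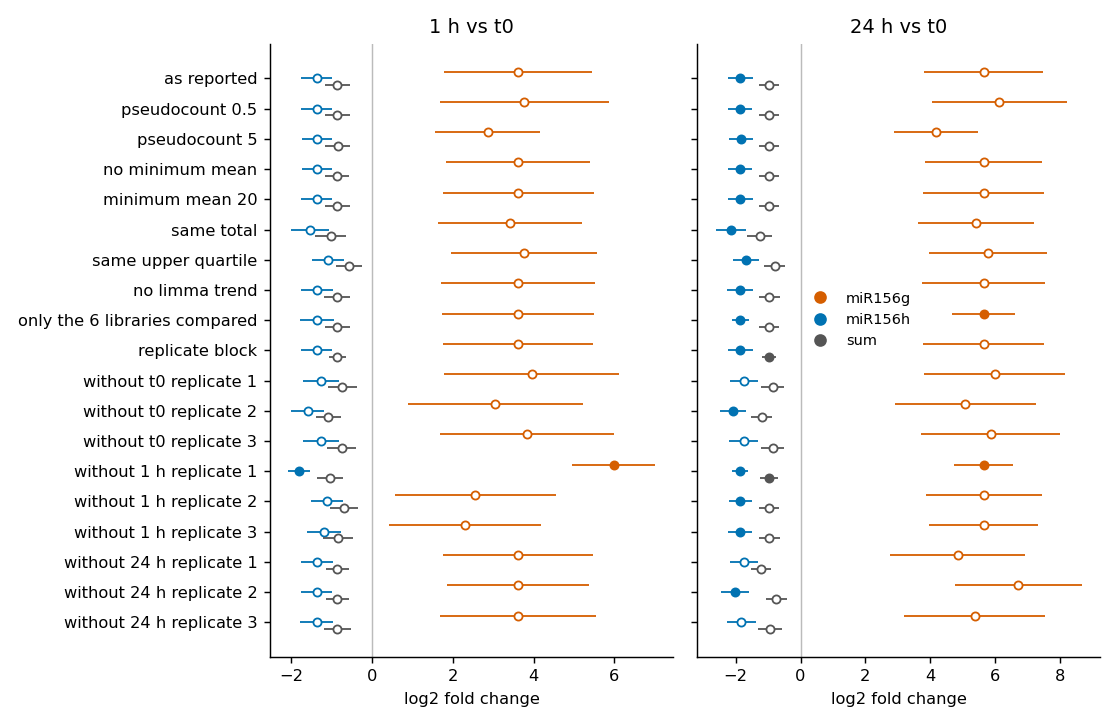
Log2 fold change ± SE of miR156g (orange), miR156h (blue) and their sum (grey) at 1 h (left) and 24 h (right) against t0, as reported and under each alternative setting. Filled points have a limma adjusted p under 0.05. Directions were the same in all settings shown, miR156h at 24 h is filled in every setting with all replicates, and at 1 h only the fit without 1 h replicate 1 gives filled points.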

How the data were processed

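The deposited table holds normalized counts (a signal with 2 decimals) of 210 pre_miRNA genes in 9 libraries. Per the labels and the study's methods, the authors trimmed reads with Trim Galore 0.6.6, mapped them with STAR 2.5.3a to the Prunus_persica_NCBIv2.38 genome, quantified them with RSEM 1.3.0 and normalized them with DESeq2 1.26.0. All low values were whole multiples of 1 step per library (within 0.05 read), taken as the value of 1 read to describe depth and read numbers. Fewer than the 100 low values needed were present, so no count test was run.

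Conditions and replicate numbers came from the sample labels. The main test was limma (version 3.58.1, R 4.3.3) with trend, fitted to log2(normalized count + 1) of all 9 libraries and 135 genes (mean at least 5), without a replicate block and with Benjamini-Hochberg adjustment (threshold 0.05). For the sum, both genes were replaced by 1 feature. Exact permutation tests, two-sided, were used for sums and shares. The limma fit was tested on simulated counts for 24 h against t0 only, with one fixed dispersion for all genes. That simulation does not cover a gene spread as widely as miR156g, and the permutation tests were not part of it. Named genes were both copies, the 3 genes most correlated with each, and the lists of miR156-related genes (by age pathway or sequence) and of miR171. The genes and lists were chosen with earlier results of these data known. Alternatives were the pseudocount, the minimum mean, scaling, trend, only the libraries compared, the block and each library left out. Mature sequences are those listed by the study. None of the identifiers matched the RefSeq gene table used here, so no genome positions are given, and target predictions were not used here.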

Additional observations from a re-analysis of the deposited data

How the results depend on the processing

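For miR156h, miR156g and their sum against t0, every alternative kept the direction. The size for miR156g depended on the constant added before the log. With 5 it was 2.86 at 1 h and 4.18 at 24 h, and with 0.5 it was 3.78 and 6.13. The range with each library left out in turn was -2.08 to -1.74 for miR156h at 24 h, -1.80 to -1.12 at 1 h, 4.85 to 6.72 for miR156g at 24 h, 2.30 to 5.98 at 1 h, and -1.21 to -0.75 for the sum at 24 h. Between 24 h and 1 h it was -0.74 to -0.06 for miR156h (-0.06 without 1 h replicate 1), -0.34 to 3.34 for miR156g and -0.36 to 0.11 for the sum, which turned to 0.06 without 1 h replicate 1 and to 0.11 without 24 h replicate 2. miR156g turned to -0.34 and its share to -0.10 percentage points without 1 h replicate 1 (share range -0.10 to 29.8). The share over both times ranged from 27.7 to 41.2 points, and the sum from -424 to -273 normalized counts, with exact permutation p = 0.0714 without any 1 of the t0 libraries, the smallest that design allows. Scaled to one upper quartile, the sum differed by -220. With only the 6 libraries compared, miR156g at 24 h passed at 5.64.

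The number of genes called by limma at 1 h was 2 when scaled to one total, 7 when scaled to one upper quartile, and 0 to 18 with a library left out (0 without t0 replicate 1, 18 without 1 h replicate 1). At 24 h it was 12 without trend, 31 with only the 6 libraries compared and 0 to 35 with a library left out (0 without t0 replicate 1 or 3, 7 without t0 replicate 2, 35 without 1 h replicate 1, and 5, 10 and 7 without 24 h replicates 1, 2 and 3). Between 24 h and 1 h it was 0 to 2 (1 without 1 h replicate 1 or 24 h replicate 1, 2 without 24 h replicate 3). With the replicate block, 10 genes were called at 24 h and the sum passed at -0.97 (limma adjusted p = 0.0391). Same-numbered libraries deviated together with r from -0.41 to 0.17 over 9 pairs, and 3 of 9 libraries correlated best with their own number, so the numbers were not taken as pairs. The gain of miR156g as a share of the loss of miR156h, recomputed with each library left out after seeing the data, was 15.4 to 27.6% at 1 h (15.4% without 1 h replicate 3 was lowest) and 18.3 to 46.0% at 24 h. The causes of these differences were not tested. Depth limits miR156g at t0, where 3 reads are worth up to 8.53 normalized counts.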
